A study of Macaca mulatta with 24 samples.

Results

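Lipolysis releases stored fat from the adipocyte, and the genes described here encode its enzymes and their regulators: *PNPLA2*, *PNPLA3*, *LIPE*, *MGLL*, *ABHD5*, *G0S2* and *AQP7*. They were chosen by name, as rows of a table of read counts whose Ensembl identifier carries one of these symbols. Of these 7 genes, 6 were found among the 32386 rows of the table, and all 6 had counts high enough to be among the 15207 genes tested. The identifier that the gene name table gives for *PNPLA2* was in no row, so *PNPLA2* was not analysed here. RNA was sequenced from biopsies of omental white adipose tissue (WAT), a visceral fat depot, with 1 library from each of 24 female rhesus macaques, randomly assigned to 4 groups of 6. The controls (*C*) carried cholesterol implants and ate monkey chow, and the *T* group received testosterone implants with the same chow. The *WSD* group carried cholesterol implants and ate a high-fat Western-style diet, and the *T* + *WSD* group received both the testosterone and the diet. Each animal was labelled as 4 years old, and tissue was taken in year 3 of treatment, although the study's methods describe the animals as older than that label at biopsy. The study chose the sequenced animals because they showed their group's overall picture of fat mass and insulin, so they are not a random draw from each group.

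In an adipocyte, triglyceride in the lipid droplet is cut in sequence. Adipose triglyceride lipase, the product of *PNPLA2*, removes the first fatty acid. Hormone-sensitive lipase, from *LIPE*, acts mainly on the resulting diglyceride, and monoglyceride lipase, from *MGLL*, releases the last fatty acid and glycerol. *ABHD5* encodes CGI-58, the co-activator of adipose triglyceride lipase, and *G0S2* encodes a protein inhibitor of the same lipase. *AQP7* encodes an aquaglyceroporin through which glycerol leaves the cell. *PNPLA3* encodes a droplet-associated relative of adipose triglyceride lipase whose transcript is known to follow feeding and lipogenesis. Catecholamines stimulate the pathway through cAMP and protein kinase A, and insulin restrains it.

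Levels are given as CPM, counts scaled to a common library size after TMM normalisation, and differences as log2 fold changes from edgeR's quasi-likelihood test in 1 fit of the 4 groups. A gene was called when its Benjamini-Hochberg adjusted p over all tested genes was under 0.05 and its fold change exceeded 1.5. CPM is not divided by gene length, so levels are compared between animals and not between genes. Total counts ranged from 6899185 to 28270776 per library. Each group held 2 libraries in which 1 gene, ENSMMUG00000038258, took more than 5% of the counts. These 8 libraries are called the library batch here, a set defined from the counts and not from a label, and the 16 others lie outside it. They were replicates 1 and 2 of *C*, 13 and 14 of *T*, 19 and 20 of *WSD*, and 7 and 8 of *T* + *WSD*. The lowest count of any member in any library was 17. The markers that define white fat, *ADIPOQ*, *PLIN1* and *CIDEC*, were present in all groups, with *ADIPOQ* between 381 and 2124 CPM. *C* replicate 1 stood apart: it had the lowest level of all 24 animals in 5 of the 6 genes, and the lowest summed adipocyte markers, 3085 CPM. Values against *C* are therefore also given without it where they move by over 1.5 times.

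None of the 6 lipolysis genes was called in any of the 6 comparisons made. In *T* + *WSD* against *C*, 4.72% of all tested genes were called higher and 5.29% lower. In *T* + *WSD* against *T* 3.77% were called in either direction, in *T* + *WSD* against *WSD* 0.815%, and in the interaction of testosterone and diet 0.243%. In *WSD* against *C* and in *T* against *C* the share called by edgeR was 0%, although 2807 and 1312 genes had an unadjusted p under 0.05, and DESeq2 called 238 and 7. At an unadjusted p under 0.05 in *T* + *WSD* against *C*, 2 of the 6 genes passed with a higher value (*LIPE* and *AQP7*), beside 13.7% of all tested genes, and 1 with a lower value (*PNPLA3*), beside 18.4%. In *T* against *C* 3 of the 6 passed, all higher, beside 3.54% of all genes, and in *WSD* against *C* 1 passed, higher, beside 9.59%. Lower values passed for 1 gene in *T* + *WSD* against *WSD* (12.1% of all genes), 1 in *T* + *WSD* against *T* (14.3%) and 2 in the interaction (7.26%). The comparisons against *C* share the same 6 animals, so their counts are not separate evidence. DESeq2 called 1 member in *T* + *WSD* against *C* (*AQP7*), where it called 1894 genes in all. It called 1 in *T* + *WSD* against *WSD* (*PNPLA3*), where it called 431 in all.

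**Figure D1:**
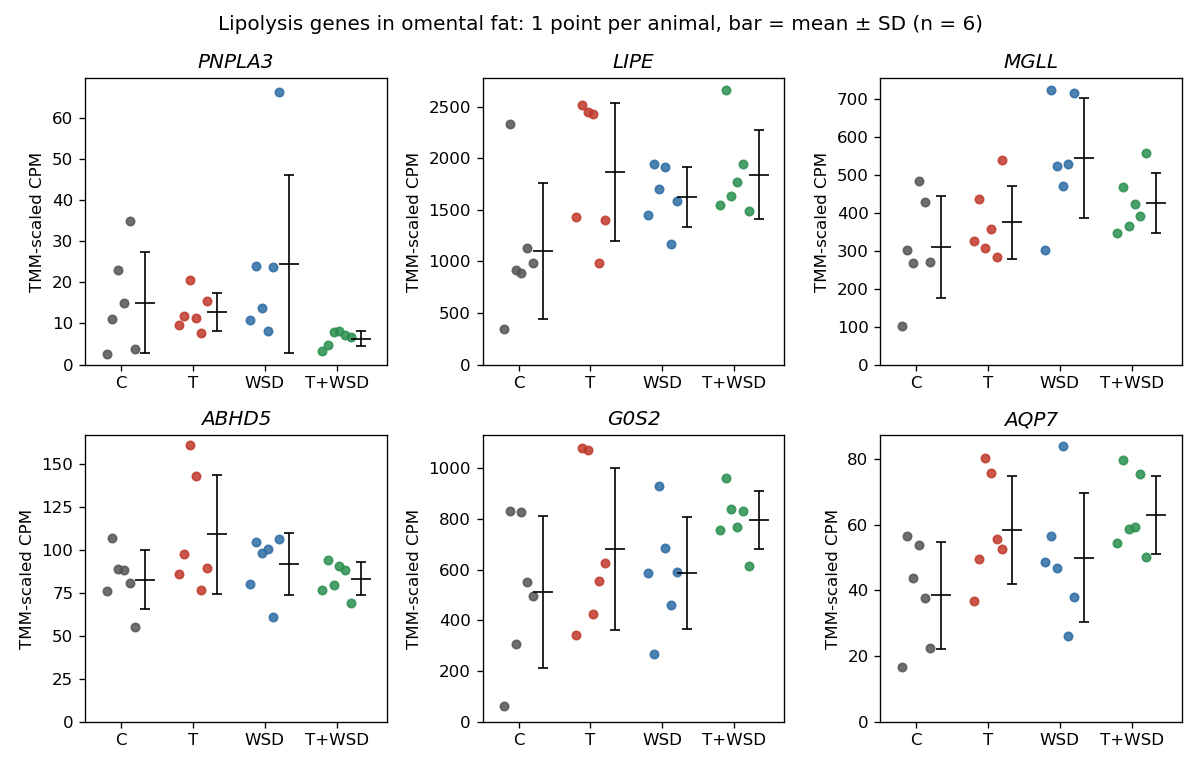
Levels of the 6 lipolysis genes in TMM-scaled CPM (linear axis from 0), with 1 point for each animal, and the mean and SD of 6 animals beside each group. *PNPLA3* in *T* + *WSD* lies between 3.23 and 8.04 CPM, below every *WSD* animal, while for the other 5 genes all groups overlap.

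*PNPLA3* (ENSMMUG00000016698) had the widest range of the 6 genes, 26.8-fold over the 24 animals, and the largest difference between groups. In *T* + *WSD* its level ran from 3.23 to 8.04 CPM, with a median of 6.96. In *WSD* it ran from 8.13 to 66.3 CPM, with a median of 18.8. All 6 *T* + *WSD* animals thus lay below all 6 *WSD* animals, though the nearest values of the groups almost met. In *C* the level ran from 2.47 to 34.9 CPM (median 12.9), and in *T* from 7.55 to 20.6 CPM (median 11.6). Both of these groups overlapped every other group. By mean the order was *T* + *WSD* (6.30 ± 1.90 CPM, SD, n = 6), *T* (12.7 ± 4.66), *C* and *WSD* (24.4 ± 21.6), and no neighbours in this order were separated beyond their spread.

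*PNPLA3* in *T* + *WSD* against *WSD* had a log2 fold change of -1.93 (SE 0.54, 95% interval -3.04 to -0.81), with an edgeR adjusted p of 0.0638. Groups that did not overlap in this direction were found for 1.37% of all tested genes. DESeq2 called it (-1.92, adjusted p = 0.0105), as did edgeR with the library batch as a covariate (-1.98, adjusted p = 0.0493). Without *WSD* replicate 24, whose 66.3 CPM was the highest of all, the log2 fold change was -1.32 with an edgeR adjusted p of 0.194. Outside the library batch it was -1.89 (edgeR adjusted p = 0.271) and within the batch -2.11 (0.712), so the size was alike in both. In either fit 0 of all tested genes were called in this comparison, so these adjusted p values say little about *PNPLA3* itself.

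Against *C*, *PNPLA3* in *T* + *WSD* had a log2 fold change of -1.23 (SE 0.53, edgeR adjusted p = 0.112), and none of these 6 animals lay below all *C* animals, since *C* replicates 1 and 6 had 2.47 and 3.88 CPM. In *WSD* against *C* the value was 0.70 (SE 0.51, edgeR adjusted p = 0.473), and 0.088 without *WSD* replicate 24 (edgeR adjusted p = 0.946). In *T* against *C* it was -0.24 (SE 0.51, edgeR adjusted p = 0.924), with -0.46 when *C* replicate 1 was left out and 0.21 when *C* replicate 5 was. The difference between the effect of testosterone on the diet and on chow, the interaction term, was -1.69 (SE 0.74, unadjusted p = 0.0321, edgeR adjusted p = 0.315), so it was not called, and it was -1.08 without *WSD* replicate 24 (edgeR adjusted p = 0.545). In *T* + *WSD* against *T*, 4 of 6 animals lay below every *T* animal, and the log2 fold change was -0.98 (SE 0.53, edgeR adjusted p = 0.244). With only these 12 libraries in the fit, this gene was called (-0.95, edgeR adjusted p = 0.0318), in a fit that called 1059 of all tested genes, beside 574 in the fit of 4 groups.

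**Figure D2:**
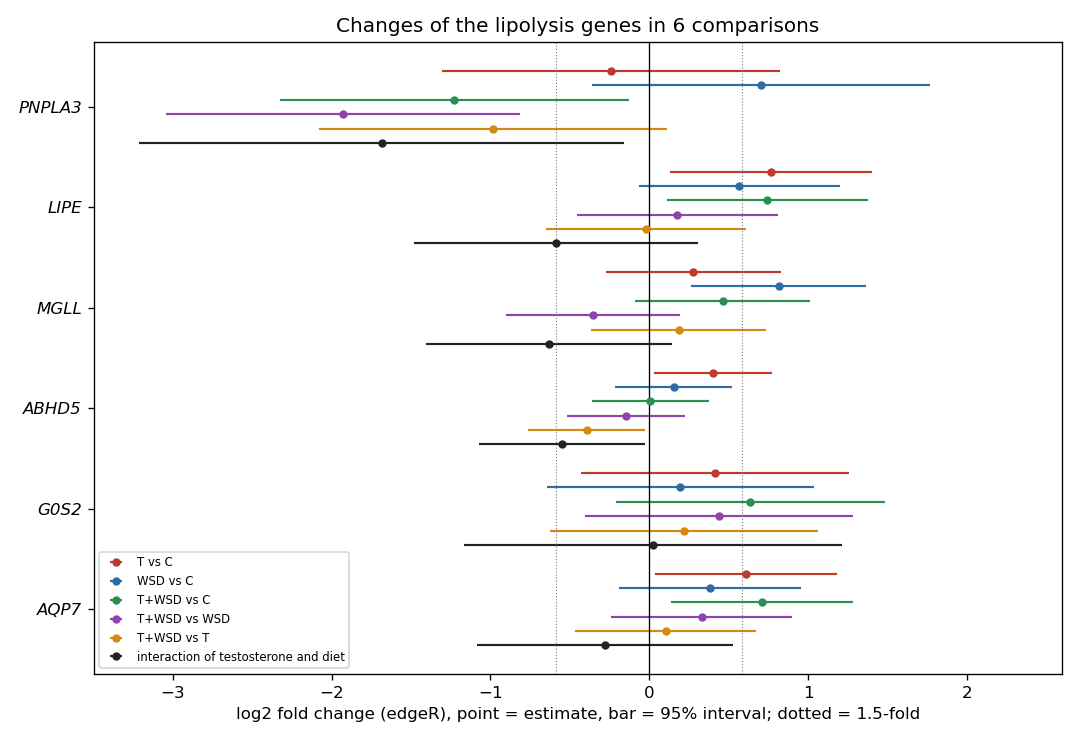
Log2 fold changes of the 6 genes in the 6 comparisons, with the estimate of edgeR as a point and its 95% interval as a bar. The interval of *PNPLA3* in *T* + *WSD* against *WSD*, -3.04 to -0.81, lies farthest from 0, and the dotted lines mark the 1.5-fold threshold.

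*LIPE* (ENSMMUG00000017916), for hormone-sensitive lipase, was lowest by mean in *C*. There it ran from 349 to 2326 CPM, with a median of 948. With testosterone alone it ran from 982 to 2514 CPM (median 1926). The *T* + *WSD* animals lay between 1488 and 2657 CPM (median 1699), and the *WSD* animals between 1170 and 1938 (median 1645). Every treated animal but *T* replicate 17 exceeded 5 of the 6 *C* animals, and *C* replicate 2, with 2326 CPM, lay above most treated animals. In each group the highest value came from the library batch: *C* replicate 2, *T* replicate 14, *WSD* replicate 20 and *T* + *WSD* replicate 8. Against the same *C* animals, *T* + *WSD* gave a log2 fold change of 0.74 (SE 0.31, unadjusted p = 0.0235, edgeR adjusted p = 0.0947), *T* 0.77 (SE 0.31, unadjusted p = 0.0202, edgeR adjusted p = 0.547) and *WSD* 0.57 (SE 0.31, edgeR adjusted p = 0.321). Without *C* replicate 2 the gene was called in *T* + *WSD* (1.14, edgeR adjusted p = 0.0102), and without *C* replicate 1 the value was 0.58 (edgeR adjusted p = 0.182). Between the treated groups the differences were small: 0.18 (SE 0.30) in *T* + *WSD* against *WSD* and -0.02 (SE 0.30) against *T*. Their 95% intervals, -0.45 to 0.81 and -0.65 to 0.61, leave room for a 1.5-fold increase against *WSD* and for a 1.5-fold change either way against *T*. The interaction term was -0.59 (SE 0.43, edgeR adjusted p = 0.598), and -0.39 without *C* replicate 1.

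*MGLL* (ENSMMUG00000000168), for monoglyceride lipase, was highest in the animals on the Western-style diet without testosterone. In *WSD* it ran from 302 to 723 CPM with a median of 525, and in *C* from 102 to 483 CPM with a median of 286. In this comparison 4 of 6 *WSD* animals lay above all *C* animals. The log2 fold change was 0.82 (SE 0.27, 95% interval 0.26 to 1.37, unadjusted p = 0.0056), with an edgeR adjusted p of 0.148 and a DESeq2 adjusted p of 0.0642. Without *C* replicate 1 it was 0.64 (edgeR adjusted p = 0.358), and outside the library batch 0.63 (0.343). In *T* + *WSD* the level ran from 348 to 558 CPM (median 407) and in *T* from 283 to 539 CPM (median 341), both within the range of *C* and *WSD* together. The log2 fold change of *T* + *WSD* was 0.46 (SE 0.27, edgeR adjusted p = 0.237) against *C*, or 0.30 without *C* replicate 1, and -0.35 (SE 0.27, edgeR adjusted p = 0.481) against *WSD*. In *T* against *C* it was 0.28 (SE 0.27, edgeR adjusted p = 0.790), or 0.099 without *C* replicate 1. The interaction term was -0.63 (SE 0.38, edgeR adjusted p = 0.489).

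The co-activator gene *ABHD5* (ENSMMUG00000001031) had the smallest range over the 24 animals, 2.94-fold, from 54.9 to 161 CPM. Its group means were 82.6 ± 17.1 in *C*, 83.0 ± 9.58 in *T* + *WSD*, 91.8 ± 17.8 in *WSD* and 109 ± 34.6 CPM in *T* (SD, n = 6 each). In *T* the animals fell apart into 4 between 76.8 and 97.6 CPM and 2, replicates 15 and 16, at 161 and 143. The log2 fold change in *T* against *C* was 0.40 (SE 0.18, unadjusted p = 0.0343, edgeR adjusted p = 0.553). In *T* + *WSD* against *C* it was 0.01 (SE 0.18, 95% interval -0.36 to 0.38), an interval that excludes a 1.5-fold change in either direction. The interaction term was -0.55 (SE 0.25, unadjusted p = 0.0411, edgeR adjusted p = 0.345), and *T* + *WSD* against *T* gave -0.39 (SE 0.18, unadjusted p = 0.038, edgeR adjusted p = 0.166).

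*G0S2* (ENSMMUG00000045482), the inhibitor gene, varied most in the control group. In the annotation of another rhesus assembly it overlaps *HSD11B1* and *LAMB3*, so part of its counts may be shared with them. In *C* it ran from 60.3 to 831 CPM (median 523). The *T* + *WSD* animals lay between 616 and 961 CPM (median 802), the *T* animals between 343 and 1079.8 (median 590.0) and the *WSD* animals between 268 and 931 (median 589). The *T* + *WSD* animals formed the tightest group, and 3 of them lay above all *C* animals. The log2 fold change in *T* + *WSD* against *C* was 0.64 (SE 0.41, 95% interval -0.21 to 1.48, edgeR adjusted p = 0.296), and without *C* replicate 1 it was 0.42 (edgeR adjusted p = 0.422). In *T* against *C* it was 0.42 (SE 0.41) and in *WSD* against *C* 0.20 (SE 0.41), with edgeR adjusted p values of 0.800 and 0.837. Without *C* replicate 1 these were 0.18 and -0.032, so the second changed sign. The interaction term was 0.02 (SE 0.58) and ran from -0.17 to 0.27 with 1 animal left out.

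*AQP7* (ENSMMUG00000001545), the glycerol channel, had a higher mean in each treated group than in *C*, as had all the other members but *PNPLA3*. The *T* + *WSD* animals lay between 50.4 and 79.7 CPM (median 59.0), and the *C* animals between 16.7 and 56.6 (median 40.7). In this comparison 4 of the 6 *T* + *WSD* animals lay above every *C* animal. *AQP7* there had a log2 fold change of 0.71 (SE 0.28, 95% interval 0.14 to 1.29, unadjusted p = 0.0173), with an edgeR adjusted p of 0.0783, while DESeq2 called the gene (0.73, adjusted p = 0.0492). Without *C* replicate 1 it was 0.57 (edgeR adjusted p = 0.166), without *C* replicate 2 it was called (0.87, edgeR adjusted p = 0.0416), and outside the library batch it was 0.65 (0.253). In *T* the level ran from 36.8 to 80.3 CPM (median 54.2) and in *WSD* from 26.1 to 84.0 CPM (median 47.7). Against *C* these gave 0.61 (SE 0.28, unadjusted p = 0.0378, edgeR adjusted p = 0.568) and 0.38 (SE 0.28, edgeR adjusted p = 0.466), the latter 0.23 without *C* replicate 1. The interaction term was -0.28 (SE 0.39, edgeR adjusted p = 0.836), or -0.11 without *C* replicate 1.

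Levels of cell type markers differed between the groups as well, and in bulk tissue fewer cells of a type and less RNA per cell cannot be told apart. The summed level of 9 adipocyte markers ran from 13521 to 19965 CPM in *T* + *WSD*, from 9653 to 18367 in *WSD*, from 9062 to 19057 in *T* and from 3085 to 14244 in *C*. The summed level of 9 mesothelial markers, from the lining of the omentum, ran from 254 to 3220 CPM in *T* + *WSD*, 772 to 6412 in *WSD*, 3005 to 18029 in *T* and 3137 to 39919.5 in *C*. By group mean most of this sum was 1 gene, *ITLN1*, at 10259 ± 12380 CPM in *C* and 1058 ± 947 in *T* + *WSD*. Of these mesothelial markers, 8 of 9 were called lower in *T* + *WSD* against *C*, as were 2 of 4 neutrophil markers, while 5 of 8 endothelial, 3 of 7 smooth muscle and pericyte, 2 of 9 adipocyte, 1 of 7 macrophage and 1 of 7 fibroblast and preadipocyte markers were called higher, and 0 of 4 T and NK cell markers in either direction. Of the called markers, *KRT8* (mesothelial), *CLDN5* (endothelial) and *FABP4* (adipocyte) have symbols only from tables in which the study lists genes it had found to change in these animals, so these 3 calls are not independent evidence. No marker of any list was at 0 in every library of a group.

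With the mean log2 CPM of the adipocyte markers in the fit, the log2 fold change of *LIPE* in *T* + *WSD* against *C* was 0.17, and that of *AQP7* was 0.23. With the mesothelial mean they were -0.09 and 0.15. In another comparison, *T* + *WSD* against *WSD*, *PNPLA3* had -2.11 (edgeR adjusted p = 0.0239, called) beside the adipocyte mean and -1.50 (0.481) beside the mesothelial mean. The adipocyte mean was 9.15 in *C*, 9.74 in *WSD* and 9.90 in *T* + *WSD*, so the 2 comparisons are not alike in it. In the 2 covariate fits 9 and 0 of all tested genes were called in *T* + *WSD* against *C*, and 301 and 1 against *WSD*. Both marker means differ between the groups themselves, and their part in these differences cannot be told apart from that of the treatments.

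Within groups, the 6 genes varied together to different degrees. Correlations were computed over the 24 animals after each group's mean was subtracted, on log2 CPM, and tested by permuting animals within groups (two-sided, with Benjamini-Hochberg adjustment over 33 relations). *LIPE* followed the mean of the adipocyte markers (r = 0.866, permutation adjusted p = 0.000165, and rho = 0.827, permutation adjusted p = 0.00033), and r was 0.745 without the 2 animals farthest from the median of the markers and 0.776 in the 16 animals outside the library batch. The permutation p behind that value, 1e-05, is the smallest that these permutations can give. *AQP7* followed the same markers (r = 0.750, rho = 0.706, permutation adjusted p = 0.00253 for r and 0.00407 for rho), with r = 0.627 without the farthest 2 and 0.719 outside the batch. *G0S2* had r = 0.794 and rho = 0.647 with these markers (permutation adjusted p = 0.0176 and 0.0130), with 0.477 and 0.715 in the same checks. *ABHD5* passed by rho (0.644, permutation adjusted p = 0.00866) and not by r (0.522, 0.0566), and *MGLL* by r (0.708, 0.0362) and not by rho (0.474, 0.0789). For *ABHD5* r was 0.674 without the farthest 2 animals and 0.815 outside the batch. For *MGLL* r was 0.471 without the farthest 2 animals and 0.11 outside the batch, so that relation rested on few animals. With the mean of the mesothelial markers only *LIPE* of the 6 had a permutation adjusted p under 0.05, and its r was negative (-0.526, rho = -0.669, permutation adjusted p = 0.00523 and 0.00407). This r was -0.600 without the 2 animals farthest from the median of these markers, and weaker, -0.359, outside the library batch. For *PNPLA3* the relation with the adipocyte markers did not pass the threshold (r = 0.506, rho = 0.401, permutation adjusted p = 0.125 for r).

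*MGLL* and *PNPLA3* instead followed the mean of 10 genes, called lipogenic enzymes here and mostly of fatty acid and triglyceride synthesis. The list also holds *PKLR*, for a pyruvate kinase, and *THRSP*, which does not encode an enzyme. *PKLR* taken alone had the lowest r of the list with both genes, -0.394 for *MGLL* and -0.024 for *PNPLA3*. For *MGLL* r was 0.918 and rho 0.804 (permutation adjusted p = 0.000165 for r and 0.000825 for rho), with r = 0.842 without the 2 animals farthest from the median and 0.798 outside the library batch. For *PNPLA3* r was 0.763 and rho 0.650 (permutation adjusted p = 0.00533 for r and 0.0135 for rho), with 0.591 and 0.696 in the same checks. The other 4 genes had r between 0.029 for *ABHD5* and 0.572 for *G0S2*, with no permutation adjusted p under 0.05. For *LIPE*, r fell from 0.429 to -0.004 without the farthest 2 animals. In the 8 animals of the batch, 2 per group, r for *MGLL* was 0.980 and for *PNPLA3* 0.986, where each group offers 1 difference between 2 animals.

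**Figure D3:**
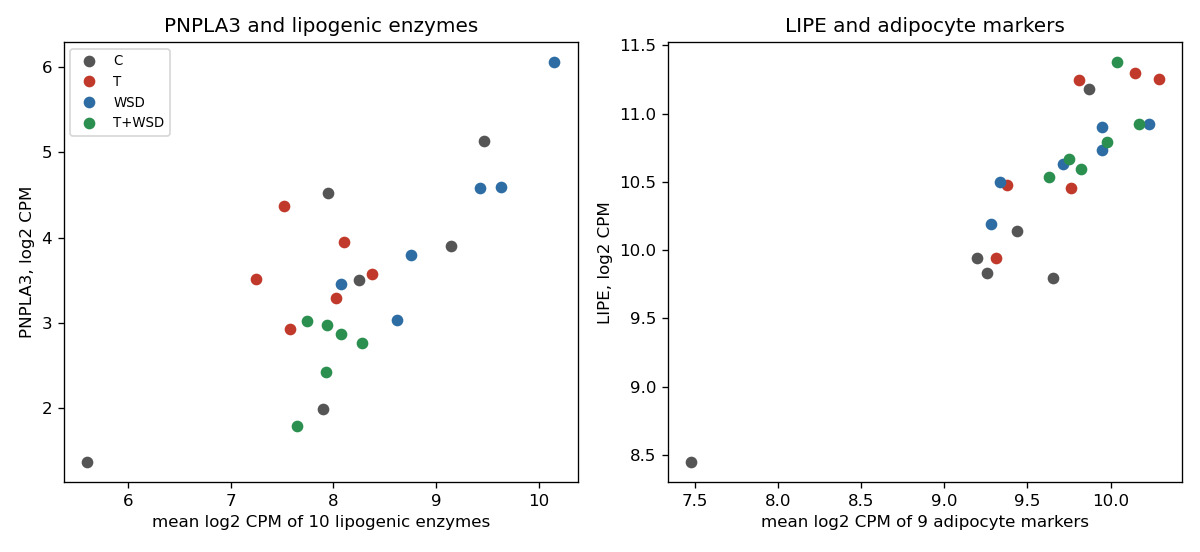
Log2 CPM of *PNPLA3* against the mean log2 CPM of 10 lipogenic enzymes (left) and of *LIPE* against the mean of 9 adipocyte markers (right), with 1 point for each of 24 animals coloured by group. *C* replicate 1 is at the lower left of both panels, and without the 2 animals farthest from the median the within-group r is 0.591 on the left and 0.745 on the right.

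Among the members themselves, all 15 pairs had a positive r, from 0.134 for *MGLL* and *ABHD5* to 0.708 for *ABHD5* and *AQP7*, with a median of 0.484. For 5 pairs both r and rho had a permutation adjusted p under 0.05. *ABHD5* and *AQP7* kept r = 0.603 without the farthest 2 animals and 0.743 outside the library batch. *LIPE* and *AQP7* had r = 0.687 and rho = 0.648, with 0.502 and 0.526 in the same checks. For *LIPE* and *ABHD5* r was 0.607 and rho 0.733, with 0.704 and 0.801 in these checks. *PNPLA3* and *MGLL* had r = 0.679 and rho = 0.589, with 0.514 and 0.471. The relation of *LIPE* and *G0S2* rested on few animals, with r = 0.682 in all and 0.310 without the farthest 2.

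The tested genes most like each member were also sought, among 12359 genes with a symbol, by the same within-group r over 24 animals. They were picked for their r, so no test is given. For *PNPLA3* they were *MLX*, which encodes the dimerisation partner of carbohydrate-response transcription factors (r = 0.899, rho = 0.864, 0.849 without the farthest 2 animals, 0.910 outside the batch), and *ACSS2*, for acetyl-CoA synthetase (r = 0.877, rho = 0.814, 0.789 and 0.874). *LIPE* was most like *STAT5A* (r = 0.917, rho = 0.893) and *LONP2*, a peroxisomal protease gene (r = 0.914, rho = 0.895). *MGLL* was most like *PDHX*, of the pyruvate dehydrogenase complex (r = 0.939, rho = 0.913), and *THRSP* (r = 0.913, rho = 0.843). *ACSS2* and *THRSP* are also among the 10 lipogenic enzymes, and *ADIPOQ* among the adipocyte markers. *ABHD5* was most like *RASL10B* (r = 0.832, rho = 0.813) and the adipokine gene *ADIPOQ* (r = 0.829, rho = 0.835). *G0S2* was most like *AOC3* (r = 0.893, rho = 0.787) and *PTH1R* (r = 0.890, rho = 0.815), and *AQP7* most like *ADIPOQ* (r = 0.884, rho = 0.849) and *LVRN* (r = 0.858, rho = 0.837). For the last 10 pairs r was between 0.758 and 0.908 without the farthest 2 animals and between 0.779 and 0.898 outside the batch.

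The 6 genes also differed between groups in how widely animals spread. The SD of log2 CPM fell short of that in *C* for all 6 genes in *T* + *WSD*, beside 76.2% of all tested genes. It also fell short for 6 of 6 in *WSD*, beside 53.1%, and for 5 of 6 in *T*, beside 62.8%. The smaller spread was thus not particular to *T* + *WSD*, and for *LIPE* it was 0.27 in *WSD*. For *G0S2* it was 1.42 in *C* and 0.21 in *T* + *WSD*, for *PNPLA3* 1.46 and 0.47, for *LIPE* 0.88 and 0.31, and for *MGLL* 0.79 and 0.25. Over all tested genes the median SD was 0.335 in *C* and 0.223 in *T* + *WSD*. *C* replicate 1 was the lowest of the *C* animals for each of these 4 genes.

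Ratios within a library do not depend on its scaling, and 3 were taken to compare groups, since their size also reflects the lengths of the genes. The log2 ratio of *ABHD5* to *G0S2* counts, co-activator to inhibitor, was -3.26 ± 0.12 in *T* + *WSD* (SD, n = 6), -2.61 ± 0.66 in *WSD*, -2.57 ± 0.68 in *T* and -2.26 ± 1.38 in *C*. The range in *T* + *WSD*, -3.40 to -3.09, overlapped that of each other group, and *C* reached 0.33 in 1 animal. *MGLL* to *LIPE* had group means from -2.27 in *T* to -1.62 in *WSD*, with overlapping ranges. *AQP7* to *LIPE* was nearly alike in the groups, from -5.09 ± 0.35 in *WSD* to -4.75 ± 0.58 in *C*.

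Around the members, genes of the wider pathway were described in 6 lists of genes, drawn from general knowledge of lipolysis and lipogenesis. In *T* + *WSD* against *C* 12 of these genes were called, listed below by role. Over all tested genes 4.72% were called higher and 5.29% lower in this comparison, the shares beside which each list's counts stand. No excess over these shares was tested. The call was kept by DESeq2 for 12 of the 12, by edgeR with the library batch as a covariate for 10, and by 0 of 12 outside the library batch, where 78 of all tested genes were called and the lowest adjusted p among the 12 was 0.100. All 12 kept their direction there. With 1 animal left out at a time, 6 to 11 of the 12 stayed called, and 6 when *C* replicate 1 was the one left out. With the adipocyte mean as a covariate 0 of 12 stayed called, and with the mesothelial mean 0 of 12, in fits where 9 and 0 of all tested genes were called.

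Among relatives of the members, 3 of 14 tested genes were called higher and 0 lower, with a median log2 fold change of 0.32, beside -0.04 over all tested genes. They were *AQP3*, another aquaglyceroporin gene (1.21, SE 0.33, edgeR adjusted p = 0.0166), *LIPA*, for lysosomal acid lipase (1.04, SE 0.36, edgeR adjusted p = 0.0465), and *LIPG*, for endothelial lipase (2.03, SE 0.58, edgeR adjusted p = 0.0198). *LIPG* stayed low, with a mean of 0.203 CPM in *C* and 0.877 in *T* + *WSD*. Of the droplet coat and fatty acid carriage genes, 2 of 11 were called higher and 0 lower, with a median of 0.54. These were *PLIN3*, a droplet coat gene (0.89, SE 0.26, edgeR adjusted p = 0.0217), and *FABP4*, for the adipocyte fatty acid carrier (0.82, SE 0.28, edgeR adjusted p = 0.0429). *PLIN3* rose from 21.4 ± 8.11 to 39.9 ± 18.1 CPM.

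In the stimulatory cAMP arm, 0 of 16 genes were called higher and 1 lower, with a median of 0.18. The called gene was *PRKAR1A*, which encodes a regulatory subunit of protein kinase A and fell from 503 ± 88.6 to 329 ± 29.2 CPM (log2 fold change -0.61, SE 0.13, edgeR adjusted p = 0.0056). The list groups genes by pathway, not by the sign of their effect, and mixes regulatory and catalytic subunits of this kinase. It also holds *NPR1*, *PRKG1* and *GHR*, so the lower call gives no direction for cAMP signalling. In the antilipolytic arm 3 of 16 were called higher and 0 lower, with a median of 0.16. All 3 encode receptors that couple to inhibitory G proteins: *HCAR2* (1.03, SE 0.30, edgeR adjusted p = 0.0211), *ADORA1* (1.10, SE 0.37, edgeR adjusted p = 0.0456) and *NPY1R* (0.75, SE 0.24, edgeR adjusted p = 0.0371). *HCAR2* had 25.4 ± 8.09 CPM in *T* + *WSD* and 32.6 ± 8.87 in *T*, beside 12.5 ± 5.36 in *C* and 14.8 ± 4.75 in *WSD*. The symbols of *LIPA*, *FABP4*, *HCAR2* and *NPY1R* came only from tables in which the study lists genes it had found to change in these animals, so these 4 calls are not independent evidence of a direction for their lists. Without them the counts were 2 of 13, 1 of 10 and 1 of 14 for relatives, droplet genes and the antilipolytic arm.

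Of 13 transcription factors, 1 was called higher and 1 lower, with a median of 0.16. *NR1H3*, for liver X receptor alpha, rose (0.78, SE 0.25, edgeR adjusted p = 0.0324), and *ESR1*, for estrogen receptor alpha, fell (log2 fold change -1.03, SE 0.23, edgeR adjusted p = 0.0062). *ESR1* had 6.79 ± 1.54 CPM in *T* + *WSD* and 8.18 ± 1.69 in *WSD*, beside 13.9 ± 5.51 in *C*. Of 10 lipogenic enzymes, 0 were called higher and 1 lower, *PKLR* (-1.65, SE 0.41, edgeR adjusted p = 0.0115), which was at 0.841 CPM or less in every group mean. The list's median was -0.62.

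The lipogenic enzymes had their largest median difference between *T* + *WSD* and *WSD*, the comparison in which *PNPLA3* did not overlap. All 10 had a negative log2 fold change, with a median of -1.37 beside -0.03 over all tested genes. The unadjusted p was under 0.05 for 7 of 10, beside 12.1% of all genes in this direction, and 1 was called, *ACLY*, for ATP citrate lyase (-2.54, SE 0.65, edgeR adjusted p = 0.0457). DESeq2 called 4. *ACLY* stood at 261 ± 167 CPM in *T* + *WSD* and 1521 ± 1240 in *WSD*, beside 610 ± 692 in *C* and 244 ± 120 in *T*. The call of *ACLY* held when *T* + *WSD* replicate 12 or *WSD* replicate 19, 21 or 22 was left out. It was lost without any 1 of the other 8 animals of these groups, with the highest edgeR adjusted p, 0.131, without *WSD* replicate 24. Outside the library batch the edgeR adjusted p was 0.260, in a fit where 0 of all tested genes were called. The mean log2 CPM of the list was 9.11 ± 0.76 in *WSD*, 7.93 ± 0.23 in *T* + *WSD*, 7.81 ± 0.43 in *T* and 8.05 ± 1.36 in *C* (SD, n = 6 each).

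**Figure D4:**
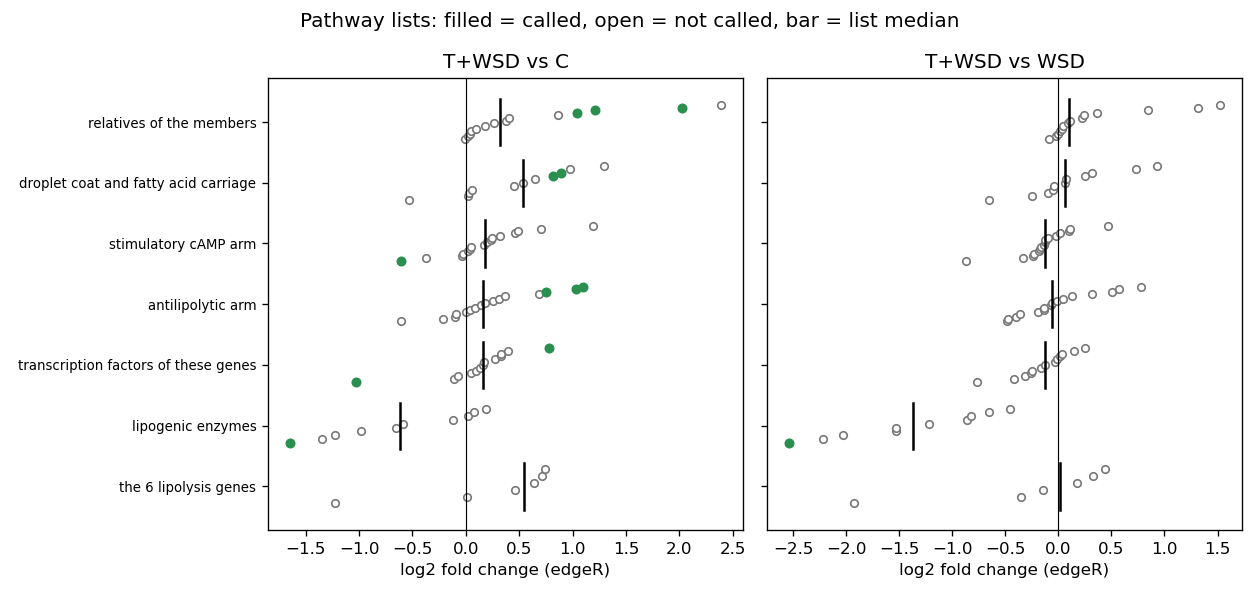
Log2 fold changes from edgeR of the tested genes of 6 pathway lists and of the 6 lipolysis genes, in *T* + *WSD* against *C* (left) and against *WSD* (right), with called genes filled and the list median as a bar. On the right all 10 lipogenic enzymes are below 0, with a median of -1.37, and the single lipolysis gene far to the left is *PNPLA3* at -1.93.

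In *WSD* against *C* and in *T* against *C* none of the pathway genes was called, as for the table as a whole. In *T* against *C*, *PLIN5* and *CIDEB*, droplet coat genes, had the largest values of their list, 2.11 (SE 0.61) and 1.57 (SE 0.50), each with an edgeR adjusted p of 0.519. *AQP3* had 1.35 (SE 0.33, edgeR adjusted p = 0.496) and *HCAR2* 1.41 (SE 0.30, edgeR adjusted p = 0.231). In *WSD* against *C*, the largest of the lipogenic enzymes were *THRSP* (1.41, SE 0.66) and *ACLY* (1.32, SE 0.62), with edgeR adjusted p values of 0.260 and 0.259. In *T* + *WSD* against *T*, 5 pathway genes were called. *PLIN3* was higher (1.03, edgeR adjusted p = 0.0250), and *PLIN5* (-2.09, 0.0473), *CIDEB* (-2.10, 0.0250), *IRS1*, for an insulin receptor substrate (-0.86, 0.0178), and *ESR1* (-0.81, 0.0369) were lower. *PLIN5* had 3.01 ± 1.62 CPM in *T* and 0.780 ± 0.394 in *T* + *WSD*, and its call was lost in each of 12 fits with 1 animal left out (edgeR adjusted p 0.0520 to 0.0992). *CIDEB* had 3.78 ± 5.29 CPM in *T*, an SD above the mean, beside 0.893 ± 0.190 in *T* + *WSD* and 1.27 ± 0.317 in *C*. Its log2 fold change against *T* ran from -2.30 to -0.87 with 1 animal left out. Outside the library batch 2 of these 5 pathway genes stayed called, and with 1 animal left out between 1 and 4. With the mesothelial mean as a covariate 0 stayed called, in a fit where 0 of all tested genes were called.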

How the data were processed

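Omental WAT of 24 female rhesus macaques gave 1 RNA library each, made with a ribosomal depletion kit and read from a single end. Reads were checked with FastQC 0.11.5, trimmed with Trimmomatic 0.36 and aligned to rheMac8 with STAR 2.5.2b by the authors, and the authors deposited raw read counts per Ensembl gene, without normalization. The counting tool and its strand setting are not given in the sources used here, so reads of overlapping genes cannot be told apart. In the RefSeq annotation of another rhesus assembly (T2T-MMU8v2.0, used for names and overlaps only), *G0S2* overlaps *HSD11B1* and *LAMB3*, *LIPE* 2 loci, *MGLL* 3 and *AQP7* 1, and *PNPLA3* and *ABHD5* none. Groups were taken from the sample labels, and replicate numbers are those of the labels.

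Gene symbols came from a gene name table and, for 230 rows, from the study's supplementary tables. *PNPLA2* had no matching row, and list genes without a row or under the filter were not analysed here. The members, lists and tests were chosen with earlier results of these data known. Named genes are all members, the 2 genes most like each member, and in each list the called genes or, with none called, the 2 with the largest absolute log2 fold change, of which some are shown. Low genes were removed by filterByExpr (min.count 10, min.total.count 15), TMM factors were computed, and edgeR 4.0.16 (R 4.3.3) gave two-sided quasi-likelihood tests from glmQLFit with robust=TRUE and legacy=TRUE. Log2 CPM used a prior count of 2. Each adjusted p is a Benjamini-Hochberg value over the 15207 tested genes unless stated otherwise, and correlations were tested with 100000 permutations. The fit was checked on simulated data with known changes. No 2 libraries of a group were identical among 60 pairs. Total counts from 6899185 to 28270776 set the precision of low genes, and the animal is the unit of replication. Alternatives were DESeq2 1.42.0, its size factors in edgeR, no filter, the library batch as a covariate or restriction, adipocyte or mesothelial covariates, no fold threshold, only the groups compared and each animal left out. The restriction to the 8 libraries of the batch was chosen after seeing the data. No gene lengths or genome sequence were used, and coordinates, from the other rhesus assembly, served only to find overlapping genes.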

Additional observations from a re-analysis of the deposited data

Results flagged for a closer look

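In the *WSD* group the *PNPLA3* level of replicate 24, 66.3 CPM, lay far above the next animal, 23.9 CPM, and its gap exceeded Dixon's 95% critical value for 6 samples. It was the only such value among the 24 groups of 6 values checked (6 genes in 4 groups), and chance alone flags about 1 in 20 groups of normally distributed values. On the log2 CPM scale the gap was 0.484 of the group's range, under the critical value, so the value stood apart on the linear scale only. The same animal also had the highest mean of the lipogenic enzymes of all 24, 10.2 on the log2 CPM scale. Its library lay outside the library batch, and the reason for its level was not tested.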

How the results depend on the processing

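The 6 counts of members called, all 0, stayed at 0 with DESeq2's size factors, no filter on low counts, no fold threshold, the mesothelial mean as a covariate, and inside or outside the library batch. The count became 1 with DESeq2 in *T* + *WSD* against *C* (*AQP7*) and against *WSD* (*PNPLA3*), 1 with the library batch and 1 with the adipocyte mean as a covariate in *T* + *WSD* against *WSD* (*PNPLA3*), and 1 with only the groups compared in *T* + *WSD* against *T* (*PNPLA3*). With each animal left out in turn it ran from 0 to 2 in *T* + *WSD* against *C* (2 without *C* replicate 2, *LIPE* and *AQP7*) and from 0 to 1 in *T* + *WSD* against *WSD* (1 without *WSD* replicate 19, 21 or 22), and was 0 throughout in the other 4. Some settings left little to call. Of all tested genes, 0 were called inside the batch in any comparison, and at most 14 with the mesothelial mean. Outside the batch genes were called only in *T* + *WSD* against *C* (78) and against *T* (308). A member count of 0 there was all but fixed in advance.

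Signs that turned were all of uncalled members or of 1 list gene. With size factors *LIPE* in *T* + *WSD* against *T* was 0.00080, and with only these groups 0.0017. With no filter *ABHD5* in *T* + *WSD* against *C* was -0.0057 and the *G0S2* interaction -0.020. Outside the batch *AQP7* in *T* + *WSD* against *T* was -0.11 and the *G0S2* interaction -0.094. In the batch *ABHD5* in *T* + *WSD* against *C* was -0.072, *G0S2* in *WSD* against *C* -0.057, *PNPLA3* in *T* against *C* 0.73, *LIPE* in *T* + *WSD* against *T* 0.11 and the *AQP7* interaction 0.11. With the adipocyte mean, *ABHD5* and *G0S2* were -0.23 and -0.027 in *T* + *WSD* against *C* and -0.046 and -0.19 in *WSD* against *C*, where *AQP7* was -0.0046. *MGLL* and *G0S2* in *T* against *C* were -0.045 and -0.18, and the *AQP7* interaction was 0.022. With the mesothelial mean, *LIPE*, *ABHD5*, *G0S2* and *PKLR* in *T* + *WSD* against *C* were -0.092, -0.29, -0.026 and 0.035, *G0S2* in *WSD* against *C* -0.054, *LIPE* and *AQP7* against *WSD* -0.38 and -0.0080, *G0S2* and *AQP7* against *T* -0.35 and -0.36, and the *G0S2* interaction -0.30. With 1 animal left out, *ABHD5* in *T* + *WSD* against *C* ran from -0.087 to 0.12, *G0S2* in *WSD* against *C* from -0.032 to 0.40, *PNPLA3* in *T* against *C* from -0.46 to 0.21, *LIPE* and *AQP7* in *T* + *WSD* against *T* from -0.15 to 0.080 and from -0.0019 to 0.21, and the *G0S2* interaction from -0.17 to 0.27. The cause of these shifts was not tested, beyond the fewer animals in the batch fits.

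No paired analysis was possible because the replicate numbers run from 1 to 24 and no groups share a number. An interaction cannot be fitted with fewer than all 4 groups, so that alternative was not run for it. Depth limits the lowest genes most: *PNPLA3* had 17 counts in *T* + *WSD* replicate 8. Under no filter the calls of *LIPA*, *FABP4*, *ADORA1* and *NPY1R* were lost (8 of 12 kept), and with only the groups compared 5 of 11 were kept. With 1 animal left out, 6 to 11 of the 12 list calls were kept in *T* + *WSD* against *C*.

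Counts over all tested genes moved by over 1.5 times in several settings. With DESeq2 they were 238 (0 by edgeR) in *WSD* against *C*, 7 (0) in *T* against *C*, 431 (124) in *T* + *WSD* against *WSD*, 1090 (574) in *T* + *WSD* against *T* and 174 (37) in the interaction. Outside the batch they were 78 (1522) in *T* + *WSD* against *C*, 0 against *WSD*, 308 against *T* and 0 in the interaction. With no filter they were 68 against *WSD* and 7 in the interaction. With the adipocyte mean they were 9 against *C*, 301 against *WSD* and 11 in the interaction, with the mesothelial mean 0 against *C*, 1 against *WSD*, 0 against *T* and 14 in the interaction, and with only the groups compared 46 against *WSD* and 1059 against *T*. Within the batch all 6 counts were 0. With 1 animal left out they ran from 900 (without *C* replicate 1) to 1790 in *T* + *WSD* against *C*, from 0 to 59 (without *WSD* replicate 19) in *WSD* against *C*, from 0 to 1 in *T* against *C*, from 9 (without *WSD* replicate 24) to 448 (without *WSD* replicate 21) in *T* + *WSD* against *WSD*, from 238 to 738 in *T* + *WSD* against *T* and from 11 to 96 in the interaction.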
